A study of Arabidopsis thaliana with 12 samples.

Results

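Gibberellin is a growth hormone that is perceived in Arabidopsis by 3 soluble receptors, GID1A, GID1B and GID1C. A receptor that has bound the hormone takes hold of DELLA proteins, which restrain growth, and an F-box protein then marks the DELLA proteins for degradation. GASA genes encode small cysteine-rich peptides of the gibberellin-regulated family, and many of them respond to the hormone. Receptor transcripts are known to be under feedback, since DELLA proteins raise the expression of receptor genes. In dark-grown seedlings gibberellin is known for promoting the long hypocotyl, and light restrains that growth.

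The 5 genes described here are these 3 receptors and 2 GASA members, AT1G22690 and AT2G14900. Each was represented by the 1 probe set that the platform annotation assigns to that gene alone. These 5 probe sets are taken from 22746 on the Affymetrix ATH1 array, a chip with 1 probe set for most genes, after the 64 control probe sets were set aside. All 5 passed the filter on dim probe sets that left 15922 for testing.

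RNA came from whole 7-day-old seedlings of ecotype Columbia, with 3 arrays in each of 4 groups. Vector seedlings carried an empty transformation vector and came from 3 independent lines (1, 4 and 7). MIF1OE seedlings carried 35S::MIF1, which drives MINI ZINC FINGER 1, a small zinc finger protein without a homeodomain, from a promoter active in most cells. Its constitutive expression is known for small plants with altered responses to several hormones, gibberellin among them. In each MIF1OE group, 2 arrays share transgenic line 124 and the remaining one is of line 127. All seedlings were T2 plants selected on 50 µg/mL hygromycin, stratified for 2 days and kept at 22 °C. Light-grown seedlings had days of 16 h of light and 8 h of darkness, and dark-grown seedlings had 2 h of light to start germination and then darkness.

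Arrays of one group correlated with r between 0.922 and 0.962, lowest in light-grown vector seedlings. MIF1 itself is not among the named probe sets, and the labels could not be checked on the transgene. Intensities below are the deposited linear values, scaled to a trimmed mean of 150.01, with array medians of 57.4 to 70.4. Differences and standard errors (SE) are on the scale log2(intensity + 7), where dim probe sets show too small a change. Adjusted p-values are from limma with Benjamini-Hochberg adjustment over all 15922 probe sets, and a gene is said to rise or fall only where this value was under 0.05. Of the 25 tests on these genes, 5 comparisons of 5 genes, 9 passed, most of them dark against light. Of all probe sets tested, 30.3% passed dark against light in vector and 24.2% in MIF1OE seedlings. For MIF1OE against vector 0.986% passed in light and 12.9% in darkness, and 0.741% passed the interaction of genotype and light. The comparisons share arrays, so the 25 tests are not independent.

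The 2 GASA members responded to light in opposite directions, and each was lower in MIF1OE seedlings in the condition in which it was high. For AT1G22690 the difference in darkness was also negative (-0.52) but did not pass, and neither did its interaction. AT1G22690 was higher in light in both genotypes. AT2G14900 was higher in darkness, though this call was marginal in MIF1OE seedlings. In light the mean intensity of AT2G14900 was still 189 in vector and 172 in MIF1OE seedlings. GID1B was higher in darkness in both genotypes. GID1A and GID1C passed in none of the 5 comparisons.

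**Figure D1:**
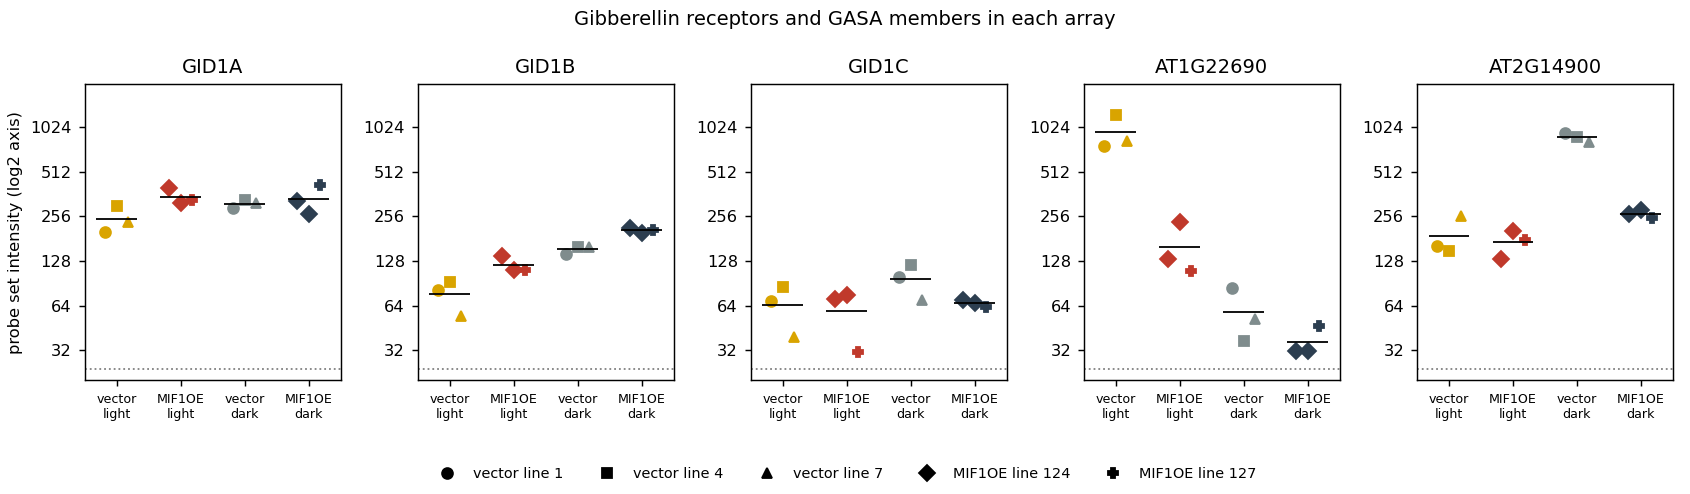
Probe set intensity (log2 axis) of the 3 receptors and the 2 GASA members in all 12 arrays. Each point is 1 array, its shape gives the transgenic line, short lines are group means of the linear values, and the dotted line is the intensity at the filter on dim probe sets (23.7). AT1G22690 is highest in light-grown vector seedlings (758 to 1242), AT2G14900 in dark-grown vector seedlings (814 to 941), and GID1B climbs through the 4 groups without overlap.

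Of the receptors, GID1B showed the clearest order of levels. In light-grown vector seedlings its intensity was 80.9, 92.7 and 54.7 in lines 1, 4 and 7. In light-grown MIF1OE seedlings it was 139 and 110 in line 124 and 111 in line 127. In darkness it was 144, 158 and 159 in vector lines 1, 4 and 7, and 214, 197 and 207 in the MIF1OE arrays. The 4 groups did not overlap, and the order from low to high was vector in light, MIF1OE in light, vector in darkness and MIF1OE in darkness.

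Darkness raised GID1B in vector seedlings 1.97-fold, a log2 difference of 0.98 (SE 0.18, limma adjusted p = 0.001932, 3 arrays in each group). In MIF1OE seedlings darkness raised it by 0.75 (SE 0.18, limma adjusted p = 0.009491), a 1.68-fold change. Both calls held under each alternative setting that was run, leaving out any single array included. GID1B was the only receptor of 3 to pass for dark against light. Dark against light, 3 of the 5 genes passed in each genotype, where 30.3% of all probe sets tested passed in vector seedlings and 24.2% in MIF1OE seedlings. Of all probe sets, 16.7% passed as higher in darkness in vector seedlings and 12.4% in MIF1OE seedlings. Higher values in darkness without overlap were found for 24.2% in vector and 23.3% in MIF1OE seedlings. The difference between the 2 dark responses, which is also the difference between the MIF1OE effects, was -0.23 (95% interval -0.78 to 0.33, limma adjusted p = 0.8084).

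MIF1OE against vector did not pass for GID1B in either condition, although the groups did not overlap in either. In light the difference was 0.63 (SE 0.18, 95% interval 0.24 to 1.03, limma adjusted p = 0.1498). In darkness it was 0.41 (SE 0.18, 95% interval 0.01 to 0.80, limma adjusted p = 0.1645). Higher values without overlap were found for 6.83% of all probe sets tested in light and for 18.3% in darkness. The light values were spread most among vector seedlings, where line 7 stood at 54.7 and the other lines at 80.9 and 92.7.

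GID1A differed less between groups. Its intensity in light-grown vector lines 1, 4 and 7 was 202, 301 and 235, and in light-grown MIF1OE seedlings it was 398 and 317 in line 124 and 328 in line 127. In darkness it was 291, 331 and 313 in the vector lines, and 322 and 267 in line 124 and 417 in line 127. The light groups did not overlap, and the dark MIF1OE range enclosed that of the dark vector seedlings. MIF1OE minus vector was 0.50 in light (95% interval 0.07 to 0.93, limma adjusted p = 0.3247) and 0.08 in darkness (95% interval -0.34 to 0.51, limma adjusted p = 0.8307). Without the dark line 127 array, the dark difference turned to -0.08. Dark minus light was 0.35 in vector seedlings (95% interval -0.08 to 0.78) and -0.07 in MIF1OE seedlings (95% interval -0.49 to 0.36).

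GID1C was the most variable receptor in light. Light-grown vector lines 1, 4 and 7 had intensities of 68.2, 85.5 and 39.3. Light-grown MIF1OE seedlings had 70.6 and 75.7 in line 124 and 31.2 in line 127. The dark-grown vector lines had 100.2, 120.1 and 70.2, and the dark-grown MIF1OE arrays 70.1, 67.0 and 62.1. The lowest light values were those of vector line 7 and MIF1OE line 127, and vector line 7 was also the lowest of the dark vector arrays. MIF1OE minus vector was -0.13 in light (95% interval -0.82 to 0.56, limma adjusted p = 0.9444) and changed sign, to 0.22, without the line 127 array. In darkness it was -0.47 (95% interval -1.16 to 0.22, limma adjusted p = 0.3689), with no overlap between the groups although the nearest arrays differed only by 70.2 against 70.1. Lower values without overlap were found for 17.9% of all probe sets tested in darkness. Dark minus light was 0.57 in vector seedlings (95% interval -0.12 to 1.26) and 0.23 in MIF1OE seedlings (95% interval -0.46 to 0.92).

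**Figure D2:**
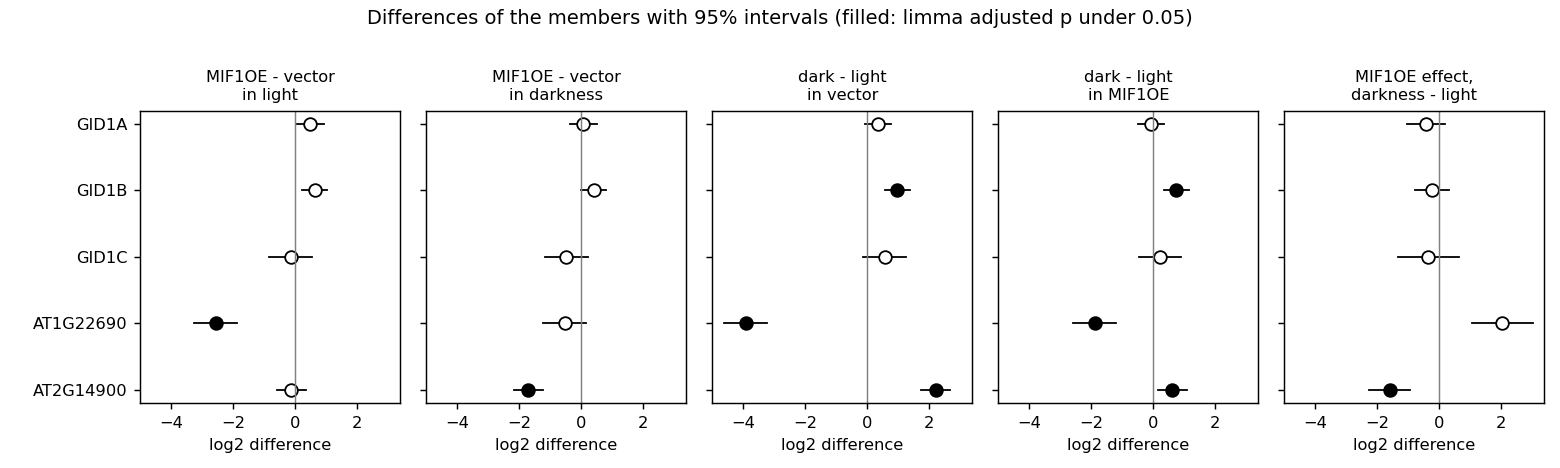
Log2 differences of the 5 genes in 5 comparisons on a common axis, with 95% intervals from limma (n = 3 arrays per group). Filled points passed at a limma adjusted p under 0.05. AT1G22690 passes in light (-2.56) and AT2G14900 in darkness (-1.70) for MIF1OE against vector, and no receptor passes there.

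AT1G22690 was high in light-grown vector seedlings, at 758, 1242 and 827 in lines 1, 4 and 7 (mean 942 ± 262, SD, n = 3). In light-grown MIF1OE seedlings it was 131 and 235 in line 124 and 109 in line 127 (mean 159 ± 67.4, SD, n = 3). Every MIF1OE array of either line lay below every vector array. The gene fell by 2.56 (SE 0.32, limma adjusted p = 0.002802), 5.90-fold on this scale, and this was the 32nd largest change in size among all probe sets tested in light. It was 1 of the 5 genes to pass there, where 0.986% of all probe sets passed, 0.659% as higher and 0.327% as lower. Lower values without overlap were found for 7.01%. The genes were chosen with the fall of AT1G22690 in light already known, so its pass here adds no independent support. The call held under each alternative setting that was run, with differences between -3.00 and -2.34 and adjusted p up to 0.02819. That range includes line 124 alone (-2.34) and line 127 alone (-3.00). Whole seedlings were extracted, so fewer cells of a type and less RNA per cell cannot be told apart. The green shoot genes measured, 3 of 8 listed (LHCB4.2, PRK and SBPASE), had a summed intensity of 5872 to 8817 in light-grown vector arrays and 4879 to 6003 in light-grown MIF1OE arrays. The seed genes measured, 2 of 9 listed (AT3G01570, an oleosin, and AT2G28490, a cupin), summed to 15.3 to 41.3 in the former and 122 to 332 in the latter. None of these genes passed in light. LHCB4.2 was at -0.36, PRK at -0.35 and SBPASE at -0.30 (limma adjusted p of 0.8388, 0.6619 and 0.8113). AT3G01570 was at 1.54 and AT2G28490 at 2.97 (limma adjusted p of 0.3084 and 0.05967). All light vector arrays of AT2G28490 (1.77 to 17.4) lay below the intensity at the filter (23.7). The part of the green shoot or seed genes in the fall of AT1G22690 was not tested.

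In darkness AT1G22690 was dim in both genotypes. Vector lines 1, 4 and 7 had 83.4, 37.2 and 52.0, and MIF1OE seedlings 31.3 and 31.8 in line 124 and 46.5 in line 127. The ranges overlapped, and several of these values lay close to the intensity at the filter (23.7). The difference between MIF1OE and vector was -0.52 (SE 0.32, 95% interval -1.22 to 0.17, limma adjusted p = 0.3175).

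Dark against light, AT1G22690 had the largest difference of the 5 genes in both genotypes. In vector seedlings it fell by 3.91 (SE 0.32, limma adjusted p = 3.59e-05), 15.0-fold on this scale and the 28th largest change in size among all probe sets. In MIF1OE seedlings it fell by 1.87 (SE 0.32, limma adjusted p = 0.001125), 3.66-fold. Both calls held under each alternative setting that was run. Lower values in darkness passed for 13.6% of all probe sets in vector seedlings and 11.8% in MIF1OE seedlings. The green shoot genes summed to 2702 to 4454 in dark vector seedlings and 1662 to 2331 in dark MIF1OE seedlings. Of these genes, PRK and SBPASE fell in darkness, by 1.39 and 2.11 in vector seedlings and by 2.58 and 2.38 in MIF1OE seedlings (limma adjusted p up to 0.001228). LHCB4.2 was at -0.093 in vector (limma adjusted p = 0.8855) and -0.33 in MIF1OE seedlings (limma adjusted p = 0.6103). Their part in the fall of AT1G22690 was not tested.

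AT2G14900 had the opposite light response. In light-grown vector lines 1, 4 and 7 its intensity was 161, 149 and 256, and in light-grown MIF1OE seedlings it was 132 and 205 in line 124 and 178 in line 127. In dark-grown vector lines 1, 4 and 7 it was 941, 880 and 814 (mean 878 ± 63.6, SD, n = 3). In dark-grown MIF1OE seedlings it was 263 and 284 in line 124 and 249 in line 127 (mean 266 ± 17.3, SD, n = 3). The dark vector arrays stood apart from the other 9, and the dark MIF1OE range overlapped that of the light-grown vector arrays, through vector line 7 at 256.

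Darkness raised AT2G14900 in vector seedlings by 2.21 (SE 0.21, limma adjusted p = 6.874e-05), 4.64-fold. In MIF1OE seedlings it rose by 0.63 (SE 0.21, limma adjusted p = 0.04935), 1.55-fold, with no overlap between light and dark. This second call is marginal. It ended when any of 5 of its 6 arrays was left out, all but light-grown line 124 replicate 2 (adjusted p up to 0.1944), with median-centred arrays (adjusted p = 0.1287), and with the light and dark arrays of a plant source entered as a replicate block (adjusted p = 0.05234). The vector call held under each setting run.

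In darkness MIF1OE lowered AT2G14900. It fell by 1.70 (SE 0.21, limma adjusted p = 7.198e-04), 3.25-fold, with all 3 MIF1OE arrays of both lines below all 3 vector arrays. It was 1 of the 5 genes to pass in darkness, where 12.9% of all probe sets passed and 6.75% passed as lower. The call held under each alternative setting that was run (differences between -1.78 and -1.61). In light the difference was -0.11 (SE 0.21, 95% interval -0.57 to 0.35, limma adjusted p = 0.9224), and it turned to 0.12 without vector line 7 and to 0.06 without line 124 replicate 1. The same 2 seed genes summed to 308 to 2146 in dark MIF1OE arrays and 26.7 to 58.1 in dark vector arrays. In dark MIF1OE seedlings AT3G01570 was 765 and 668 in line 124 and 113 in line 127. AT2G28490 was 1380 and 733 in line 124 and 194 in line 127, which has 1 array here. The 3 root genes measured of 8 listed (PYK10, EXPA7 and EXPA18) had sums of 4999 to 5221 in MIF1OE and 4239 to 5067 in vector, and the green shoot genes 1662 to 2331 and 2702 to 4454. PYK10 made up most of each root sum and was at 0.15 (SE 0.16, limma adjusted p = 0.5846). The root hair expansins EXPA7 and EXPA18 rose in dark MIF1OE seedlings by 1.56 (SE 0.26, limma adjusted p = 0.003248) and 1.53 (SE 0.31, limma adjusted p = 0.009054). Both seed genes rose as well, AT3G01570 by 3.35 and AT2G28490 by 4.95 (limma adjusted p up to 0.004181). Of the green shoot genes PRK fell by 1.54 (limma adjusted p = 0.002209), while LHCB4.2 was at -0.60 and SBPASE at -0.56 (limma adjusted p of 0.3651 and 0.24). The part of these in the fall of AT2G14900 was not tested.

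The effect of MIF1OE on AT2G14900 was therefore compared between darkness and light. The dark effect was 1.59 lower than the light effect (interaction -1.59, SE 0.30, 95% interval -2.24 to -0.93, limma adjusted p = 0.03691). Of all probe sets 0.741% passed this comparison, 0.308% with a lower effect in darkness. With plant source as a replicate block, 211 probe sets passed against 118 without it, AT2G14900 among them (adjusted p = 0.04894). The call ended when any of 10 of the 12 arrays was left out (adjusted p up to 0.08765), all but light-grown vector line 7 and light-grown MIF1OE line 124 replicate 1. It also ended without the filter (adjusted p = 0.05182) and with a pseudocount of 1 (adjusted p = 0.05165). The sign was negative under all these settings. For AT1G22690 the interaction had the opposite sign, 2.04 (SE 0.45, 95% interval 1.05 to 3.02), and did not pass (limma adjusted p = 0.06941). It passed with a pseudocount of 32 (adjusted p = 0.02617) and without light-grown line 124 replicate 2 (adjusted p = 0.03809). Several dark values of AT1G22690 lay close to the intensity at the filter (23.7), and any part of dimness in this interaction was not tested. The 5 comparisons share arrays with one another, so these differences are not independent of those above.

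MIF1OE against vector was also averaged over light and darkness, a contrast chosen after the values had been seen. GID1B was higher by 0.52 (SE 0.13, limma adjusted p = 0.02146), positive in both conditions, where 5.89% of all probe sets passed as higher and 6.49% as lower. In all 1972 probe sets passed, and 1086 with the random replicate block. The call was lost with plant source as a random replicate block (0.52, adjusted p = 0.06113), with line 124 alone (0.54, adjusted p = 0.07483) and with line 127 alone (0.48, adjusted p = 0.2459). It was also lost without light MIF1OE line 124 replicate 1 or dark vector line 1, the values without single arrays running from 0.42 to 0.59 (adjusted p up to 0.05358). GID1A stood at 0.29 (SE 0.14, limma adjusted p = 0.192) and GID1C at -0.30 (SE 0.22, limma adjusted p = 0.4201) on the same contrast. The GASA members AT1G22690 and AT2G14900 were lower by this average (-1.54, SE 0.23, and -0.91, SE 0.15). The call of AT2G14900 was lost with line 127 alone (-0.91). Its average joins -1.70 in darkness and -0.11 in light, and that of AT1G22690 joins -0.52 in darkness and -2.56 in light. The genes were chosen with the fall of AT1G22690 in light and the receptors' values for MIF1OE against vector already known. The passes of AT1G22690 and GID1B on this average therefore add no independent support. AT1G68570, the gibberellin transporter, was higher by 1.09 (SE 0.21, limma adjusted p = 0.006305), a call that held under each setting run. SLY2 was also higher, by 0.46 (SE 0.12, limma adjusted p = 0.03123), but its call was lost in 13 of 23 alternatives (adjusted p up to 0.1358). These were a pseudocount of 32, quantile normalization, the random replicate block, either MIF1OE line alone, and leaving out vector line 1 or 4 in light, vector line 4 or 7 in darkness, or line 124 replicate 1 or line 127 in either condition.

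Receptors and GASA members can be set side by side within an array as the mean log2 level of the 3 receptors minus that of the 2 GASA members. This difference was lowest in light-grown vector seedlings, -1.91 ± 0.43 (SD, n = 3). It was -0.43 ± 0.38 in dark-grown vector and -0.24 ± 0.45 in light-grown MIF1OE seedlings, whose ranges overlap. It was highest in dark-grown MIF1OE seedlings, at 0.68 ± 0.11. Over the 12 arrays the receptor mean ran from 6.47 to 7.59 and the GASA mean from 6.67 to 8.87. These probe sets differ in brightness, so only shifts between groups can be read. The 2 GASA members change with light in opposite directions, so similar differences can come from unlike levels. Mean intensities of AT1G22690 and AT2G14900 were 57.5 and 878 in dark-grown vector seedlings. In light-grown MIF1OE seedlings these means were 159 and 172.

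Other gibberellin genes were sparsely covered. Beside the 5 genes, 65 further genes of hormone synthesis, inactivation, signalling, transport and response were listed. Of these, 15 had a named probe set and 11 passed the filter. None of the 14 listed synthesis genes or the 9 inactivation genes was measured by a named probe set, so hormone production is not described here. In light none of the 11 passed, and their differences between MIF1OE and vector ran from -0.52 to 0.75 (median 0.09, against -0.01 for all probe sets). Of all probe sets 0.986% passed there. In darkness 2 rose and none fell (median -0.06, against -0.0021 for all probe sets), where 6.14% of all probe sets rose. Dark against light, 3 rose and 1 fell in vector seedlings (median 0.11, against 0.06 for all), and 1 rose and 1 fell in MIF1OE seedlings (median 0.32, against 0.09 for all). Of all probe sets, 16.7% rose and 13.6% fell in vector seedlings, and 12.4% rose and 11.8% fell in MIF1OE seedlings. None of the 11 passed the interaction, which 0.741% of all probe sets passed.

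**Figure D3:**
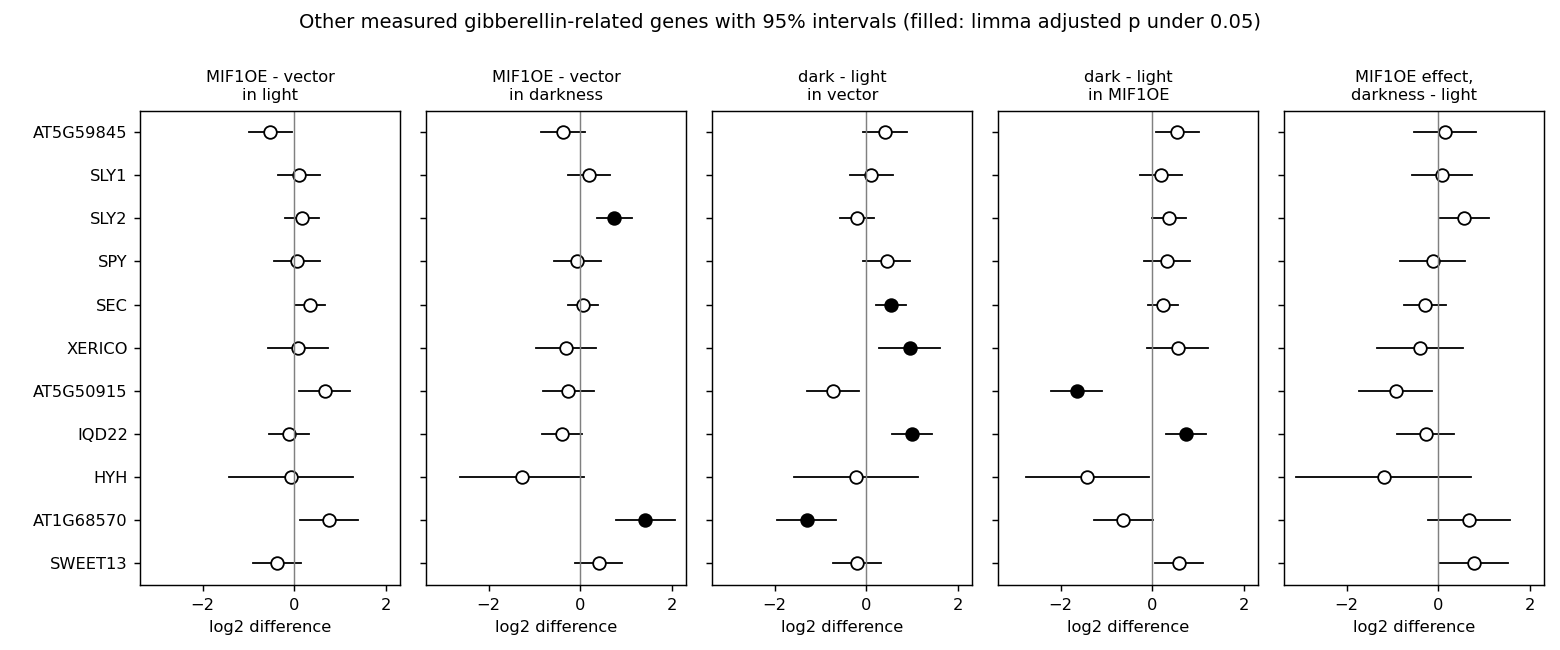
Log2 differences of the 11 other gibberellin-related genes that passed the filter, in the same 5 comparisons and on a common axis, with 95% intervals from limma (n = 3 arrays per group). Filled points passed at a limma adjusted p under 0.05. SLY2 and AT1G68570 pass for MIF1OE against vector in darkness, and none passes in light.

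In the GASA family, 6 of 15 listed genes had a named probe set and 3 passed the filter, AT1G22690, AT2G14900 and AT5G59845. AT5G59845 was dim, with group means between 21.3 and 46.0, and passed in no comparison. Its difference between MIF1OE and vector was -0.52 in light (SE 0.22, limma adjusted p = 0.3696) and -0.37 in darkness (SE 0.22, limma adjusted p = 0.2944). AT2G39540, AT2G18420 and AT2G30810 did not pass the filter, their highest group means being 31.4, 19.1 and 9.54.

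Among signalling genes downstream of the receptors, SLY2, an F-box protein related to the SLY1 protein that targets DELLA proteins, rose in dark-grown MIF1OE seedlings by 0.74 (SE 0.17, limma adjusted p = 0.01726). Its intensity was 23.8 to 31.0 in dark vector and 36.5 to 59.1 in dark MIF1OE arrays, which do not overlap but are dim. The call ended without dark vector line 4 or 7 or without dark MIF1OE line 124 replicate 1 or line 127 (adjusted p up to 0.07389). It also ended with quantile normalization (adjusted p = 0.05263) and with either MIF1OE line alone (adjusted p up to 0.09036). SLY1 was at 0.19 (SE 0.21). SPY and SEC, glycosyltransferases that modify DELLA proteins, were at -0.06 (SE 0.23) and 0.06 (SE 0.15). SEC was higher in darkness in vector seedlings by 0.53 (SE 0.15, limma adjusted p = 0.01925), a call that ended without vector line 7 in light or vector line 4 or 7 in darkness (adjusted p up to 0.06361). It also ended with median-centred arrays (adjusted p = 0.06237) and with vector arrays alone (adjusted p = 0.05508).

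Among genes listed as transcripts that DELLA proteins act on, IQD22 rose in darkness in vector seedlings by 1.01 (SE 0.20, limma adjusted p = 0.002997) and in MIF1OE seedlings by 0.73 (SE 0.20, limma adjusted p = 0.01908). The second of these calls ended without light line 124 replicate 2 or line 127, or without either dark line 124 array (adjusted p up to 0.07532). XERICO, a RING finger protein that promotes abscisic acid accumulation, rose in darkness in vector seedlings by 0.95 (SE 0.30, limma adjusted p = 0.03326). That call ended without the filter (adjusted p = 0.05058), without vector line 1 or 7 in light, or without line 4 or 7 in darkness (adjusted p up to 0.1286). AT5G50915 fell in darkness in MIF1OE seedlings by 1.65 (SE 0.26, limma adjusted p = 6.406e-04), and in vector seedlings it was at -0.73 (SE 0.26, limma adjusted p = 0.05028). None of these 3 genes passed for MIF1OE against vector.

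AT1G68570, the transporter NPF3.1, which is known to carry gibberellin, rose in dark-grown MIF1OE seedlings by 1.42 (SE 0.29, limma adjusted p = 0.00985). Its intensity was 37.7 to 63.7 in dark vector and 127 to 143 in dark MIF1OE arrays, without overlap. Among the settings run, the call ended only with line 127 alone, where 1 dark MIF1OE array is left (1.50, adjusted p = 0.1078). In light it was at 0.75 (SE 0.29, limma adjusted p = 0.3203), from 85.5 to 171 in vector and 137 to 270 in MIF1OE arrays. In vector seedlings it fell 2.46-fold in darkness (SE 0.29 on the log2 scale, limma adjusted p = 0.005894). SWEET13, a sugar transporter that also carries gibberellin, was at 0.40 (SE 0.24) in darkness. HYH, a bZIP factor of light signalling, was at -1.27 (SE 0.62, limma adjusted p = 0.2061) and was widely spread within each group.

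The named genes whose levels ran most like each member were found by Pearson correlation of log2 values over the 12 arrays, among 8730 probe sets with 1 gene name that passed the filter. These values include the differences between the 4 groups, and the light and dark arrays share their lines. For AT1G22690 the highest were AT2G34450 (r = 0.96), AT5G55210 (0.96) and MSRB6 (0.95), a methionine sulfoxide reductase. The lowest were AT1G09740 (-0.98), AT2G44010 (-0.97) and AT5G53110 (-0.97). For AT2G14900 the highest were AT1G12080 (0.97), AT3G02700 (0.97) and AT3G48970 (0.97), and the lowest AT1G23130 (-0.94), AT2G37540 (-0.93) and AT3G58610 (-0.93). For GID1B they were AT5G13200 (0.98), AT1G14780 (0.97) and AT5G44380 (0.96). For GID1C they were AT4G22360 (0.94), AT2G07360 (0.94) and AT2G32150 (0.93), and for GID1A the glutamine amidotransferase GAT1_2.1 (0.91), AT2G24550 (0.87) and FIS1B (0.86).

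Among the members themselves, the pair with the strongest relation over the 12 arrays was GID1B and AT1G22690 (r = -0.91). Within groups, as deviations from each group's mean, this pair had r = 0.03. The relation therefore lay in the differences between groups. GID1B and AT2G14900 had the reverse pattern, with r = 0.35 over the arrays and r = -0.95 within groups. In 11 of 12 arrays, their deviations had opposite signs, and without the 3 light-grown vector arrays r was -0.92 (n = 9). Of the 15921 other probe sets tested, AT2G14900 had the lowest within-group r with GID1B. This pair was chosen after its values were seen, deviations of 3 arrays about their mean are not independent, and the value is a description with no test. The other 4 receptor and GASA pairs had within-group r between -0.47 and 0.39.

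**Figure D4:**
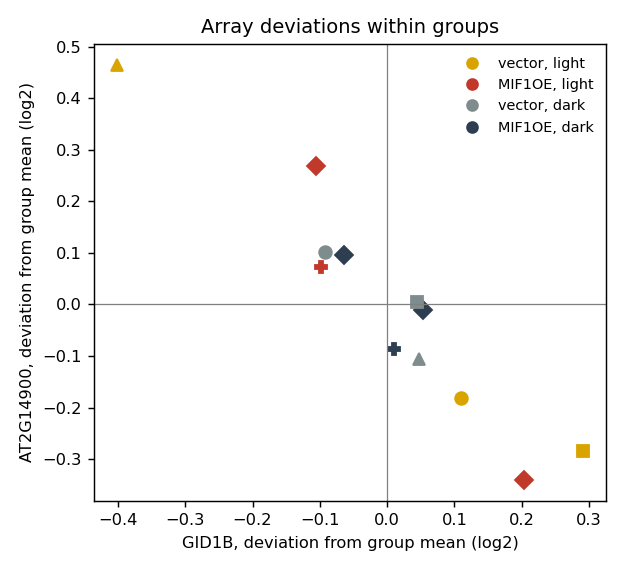
Deviation of each array from its group mean for GID1B (x axis, log2) and AT2G14900 (y axis, log2). Each point is 1 of 12 arrays, coloured by group and shaped by transgenic line as in the plot of intensities. The points fall along a descending line (r = -0.95), and light-grown vector line 7 lies farthest out, at -0.40 for GID1B and 0.46 for AT2G14900.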

How the data were processed

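The 12 single-colour arrays were deposited as linear intensities per probe set, computed by the authors with GCOS per the submitters' processing notes (version not given in the sources used here). Trimmed means (2% off each end) were equal on all arrays, so the authors' scaling was kept. No detection calls were used, no 2 arrays held identical values, and the number of arrays limits the precision. From the deposited intensity, log2(value + 7) was computed. The 64 control probe sets and the 6824 dimmest (below the 30th percentile of the mean log2 value) were left out. Contrasts were fitted with limma 3.58.1 in R 4.3.3 (lmFit, eBayes) on all 12 arrays and 4 group means, so every SE pools the spread of all groups, and the code was tested on simulated data. Intervals cover 95%.

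Gene names came from the platform annotation, updated by Entrez identifier through the RefSeq table for TAIR10.1. Of 22746 probe sets, 13513 named 1 gene, 503 several and 8730 none, and 13436 matched the table. The named genes are the 5 members, the measured genes of 70 listed gibberellin-related genes (the brightest probe set of a gene), and the 3 most similar genes per member by Pearson r (for the GASA members also the 3 least similar). Members and lists were chosen with earlier results of these data known, among them the fall of AT1G22690 in light and the receptors' values for MIF1OE against vector.

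The series calls the samples biological replicates. Light and dark arrays of one line (within line 124, of one replicate number) are paired by source. Their deviations from group means correlated with r between 0.233 and 0.339 in all 6 pairs, so plant source was run as a replicate block. Vector and MIF1OE arrays share no number. Alternatives covered filter, pseudocount, normalization, variance trend, arrays in the fit, MIF1OE line, the block and each array left out.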

Additional observations from a re-analysis of the deposited data

Results flagged for a closer look

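The effect of MIF1OE on AT2G14900 differed between darkness and light by a test of the difference itself, the interaction of genotype and light (log2 -1.59, SE 0.30, limma adjusted p = 0.03691). The effect was -1.70 in darkness and -0.11 in light. All 3 dark MIF1OE arrays were below all 3 dark vector arrays, while the light groups overlapped. As given above, the call depends on which arrays are in the fit.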

How the results depend on the processing

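Of the 9 calls on the 5 genes, 7 kept direction and call under each alternative run. Both exceptions concern AT2G14900. The interaction of AT2G14900 was not called without a filter (-1.59) or with a pseudocount of 1 (-1.61), with values of -1.82 to -1.44 without single arrays. Dark against light in MIF1OE seedlings it was not called without a filter (0.63), with a pseudocount of 1 (0.65), a floor of 7 (0.65), median-centred arrays (0.53) or the fixed replicate block (0.63), and ran from 0.46 to 0.76 without single arrays. The replicate block changed no other call on the members in the 5 comparisons. The interaction of AT1G22690 was called with a pseudocount of 32 (2.02) and ran from 1.80 to 2.35 without single arrays. Sign changes occurred among values that were never called. With line 124 alone GID1C in light was 0.22 and GID1A in darkness was -0.083. Without single arrays, the ranges were -0.41 to 0.22 (GID1C) and -0.25 to 0.12 (AT2G14900) for MIF1OE against vector in light, -0.083 to 0.23 for GID1A in darkness, and -0.23 to 0.082 (GID1A) and -0.13 to 0.43 (GID1C) for dark against light in MIF1OE. The receptor minus GASA difference in dark MIF1OE seedlings moved to 0.52 with a pseudocount of 32.

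Counts over all probe sets moved more. In light 157 passed (105 higher, 52 lower). A filter at the 50th percentile gave 103 (77 and 26), with 57 for light arrays alone (49 and 8), 48 for line 124 alone, and 45 (without line 127) to 265 (without line 124 replicate 2) when an array was omitted. In darkness 2052 passed, 1078 with line 124 alone, 363 with line 127 alone and 1069 to 1357 without single arrays. The interaction gave 118, with 63 under the stricter filter (30 and 33, against 69 and 49), 78 with a pseudocount of 1, 211 with the fixed replicate block and 59 to 190 without single arrays. Dark against light in vector seedlings gave 4829, and 2971 to 4379 without single arrays. The contrast averaged over both conditions gave 1972, with 1086 under the random replicate block, 868 with line 124 alone and 796 with line 127 alone. In it GID1B was not called with line 124 alone (0.54), line 127 alone (0.48) or the random block (0.52), and ran from 0.42 to 0.59 without single arrays, while AT2G14900 was not called with line 127 alone (-0.91). The filter on mean linear intensity, chosen after seeing the data, kept all 9 calls. The causes were not tested, apart from fewer arrays or genes in a setting by construction.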
